A study of Rattus norvegicus with 6 samples.

Results

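The epidermal growth factor (EGF) family consists of secreted or shed ligands and the receptor tyrosine kinases that they activate. The ligands are made as membrane-bound precursors, are released by ADAM metalloproteinases and bind receptors on the same or neighbouring cells. Bound receptors pair up, phosphorylate each other and pass the signal to the Ras-MAPK and PI3K pathways, and in epithelia the system is known for control of growth, repair and secretion. The 10 genes described here are the ligands Egf, Tgfa, Areg, Ereg, Hbegf and Btc and the receptors Egfr, Erbb2, Erbb3 and Erbb4. They were picked by symbol from the 14506 genes that the array annotation names singly, and each was represented by 1 probe set.

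The endosalpinx, which is the mucosa of the oviduct, was taken from adult Sprague-Dawley rats of 240 to 280 g (241 to 280 g for unmated replicate 2). The 3 mated females joined fertile males in their cages at 2200 h, in pro-estrus, were checked after 30 min for sperm in a vaginal smear or a plug, and were killed 3 h after mating, at 0130 h of estrus, with abundant semen in the uterus. The 3 unmated females were kept isolated, were killed at the same hour, and had uterine edema noted on their labels. Ovulation was expected about 5 h later. Mating, company and handling cannot be told apart in this design. RNA of each animal was hybridised to its own Affymetrix array, and the values are log2 signals after RMA (robust multi-array average), which gives all arrays a similar distribution of signals.

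The median log2 signal of the arrays lay between 7.89 and 7.94. Background was judged from odorant and pheromone receptor genes, which sensory neurons use. A gene whose 6-array mean was at or below the 95th percentile of their means, a log2 signal of 7.13, is called within the odorant receptor range. Of 11 measured epithelial, ciliated and secretory markers, 9 lay above that limit, among them Epcam, Krt8, Foxj1 and Pax8. Msx2 and Spag6 lay within it. The same limit was passed by 71.06% of all genes, by 7 of 9 fibroblast markers and by 7 of 8 smooth muscle markers. These counts therefore do not single out epithelium. Mated replicate 1 received the lowest weight, 0.446, when arrays were weighted by their fit, against 0.827 to 1.37 for the other 5 arrays.

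No member of the family passed the test of mated against unmated rats, and no gene of the whole table did (limma, 0 of 14506 genes, 0%, at an adjusted p under 0.05, and 663 genes, 4.57%, at an unadjusted p under 0.05). Tgfa had the smallest p and the lowest fold change of the 10 genes and was the only member whose groups did not overlap. Over all genes, the groups did not overlap for 8.47%, made up of 5.24% with mated rats on the high side and 3.23% with mated rats on the low side. The other 9 members overlapped between the groups. In whole tissue, fewer cells of a type and less RNA per cell cannot be told apart.

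**Figure D1:**
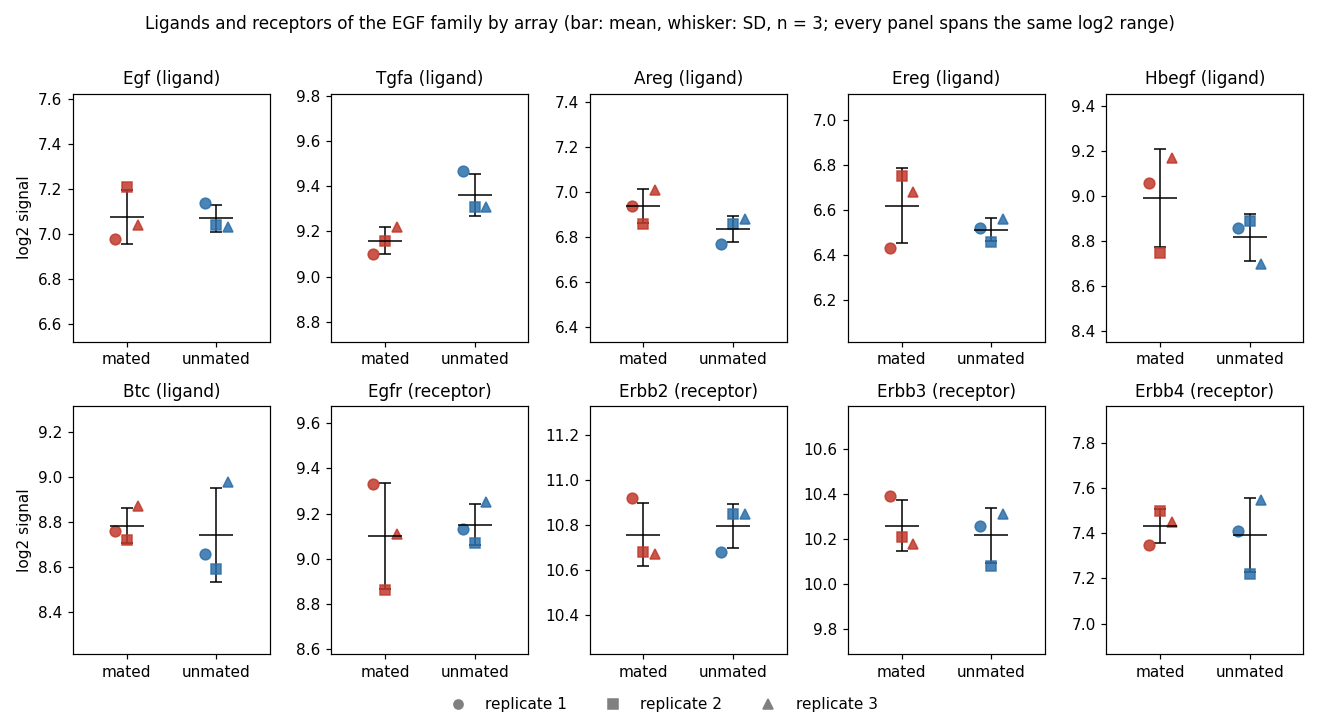
Log2 signal (y axis) of the 6 ligands and 4 receptors on each array, mated rats at the left and unmated rats at the right of each panel, with the mean and SD of 3 arrays; every panel spans the same log2 range. All 3 mated points lie below the unmated points for Tgfa alone, and Hbegf and Egfr have the widest spread, 0.47 from the lowest to the highest array.

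Bases upstream of 3 ligand genes are shown because Tgfa and Hbegf had the lowest and the highest fold change of the members and because Areg alone among the members searched carried a cyclic AMP response element. The sequences come from RefSeq for the rat assembly GRCr8, in which 8 of the 10 members had a promoter window. They run 5′ to 3′ on the gene's strand, up to the base before its outermost annotated start. Capitals mark matches to the motifs searched on both strands.
Tgfa: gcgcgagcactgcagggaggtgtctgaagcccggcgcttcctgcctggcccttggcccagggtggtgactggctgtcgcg
Hbegf: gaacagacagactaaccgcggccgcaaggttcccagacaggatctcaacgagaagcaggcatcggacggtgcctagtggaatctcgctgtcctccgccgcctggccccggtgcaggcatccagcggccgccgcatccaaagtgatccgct
Areg: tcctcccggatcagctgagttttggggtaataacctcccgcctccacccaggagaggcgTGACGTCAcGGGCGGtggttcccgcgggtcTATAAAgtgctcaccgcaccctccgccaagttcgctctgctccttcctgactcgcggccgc

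The Tgfa stretch is chr4:120175469-120175548 on the plus strand, the Hbegf stretch is chr18:28390221-28390370 on the minus strand, and the Areg stretch is chr14:17265642-17265791 on the minus strand. In the Areg stretch the capitals mark, in order, a cAMP response element (TGACGTCA), a GC box (GGGCGG) and a TATA box (TATAAA). In windows of 300 bases around a start site the cAMP response element stood in 1 of 8 members and in 1.83% of 33469 promoters. The TATA box stood in 1 of 8 members, again Areg, and in 14.2% of promoters. The GC box stood in 6 of 8 members (Tgfa, Areg, Btc, Egfr, Erbb2 and Erbb4) and in 33.1% of promoters. The Tgfa matches, which began at -154 and 21 bases from the start site of its window, lay past the end of the printed Tgfa stretch. That stretch ends before an annotated start upstream of this site and so carries no capitals. No AP-1 site (TGANTCA, 7.33% of promoters) or estrogen response element (0.0269% of promoters) was found in the 8 windows. No motif overlapped another in the Areg stretch. A match describes letters only. Areg and Ereg are neighbours on chromosome 14, 45843 bases apart, and Btc lies 225205 bases before Areg.

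Among the ligands, Tgfa encodes transforming growth factor alpha, which binds Egfr. Its log2 signal was 9.10, 9.16 and 9.22 in mated rats, against 9.47, 9.31 and 9.31 in unmated rats. The groups did not overlap, and unmated replicate 1 stood highest. The means were 9.16 ± 0.06 in mated and 9.36 ± 0.09 in unmated rats (SD, n = 3 each), a log2 fold change of -0.20 (SE 0.08, 95% confidence interval -0.38 to -0.03), or 0.869-fold. This did not pass over all genes (unadjusted p = 0.0283, adjusted p = 0.984 by limma). Without unmated replicate 1 the log2 fold change was -0.15 (unadjusted p = 0.111), and without mated replicate 1 it was -0.17 (unadjusted p = 0.07 by limma). Fibroblast markers lay lower in mated rats for 9 of 9 measured genes, or 7 after a second quantile normalization and 6 without mated replicate 1 or without unmated replicate 1. Unmated replicate 1 and mated replicate 1, the highest and lowest arrays for Tgfa, also had the highest and lowest mean deviation of the fibroblast markers, at -0.20 for mated replicate 1 and 0.20 for unmated replicate 1. Mated replicates 2 and 3 stood at -0.018 and -0.0365, and unmated replicates 2 and 3 at 0.16 and -0.11. Unmated replicate 3 thus lay below mated replicates 2 and 3 for the fibroblast markers but above them for Tgfa. The part of the fibroblast markers in the Tgfa result was not tested.

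Hbegf encodes heparin-binding EGF-like growth factor, a ligand of Egfr and Erbb4. Its log2 signal was 9.06, 8.75 and 9.17 in mated rats, against 8.86, 8.89 and 8.70 in unmated rats. Mated replicates 1 and 3 were above all unmated arrays, while mated replicate 2 was below the first and the second of them, so the groups overlapped. The log2 fold change of 0.18 was the highest of the members (95% confidence interval -0.09 to 0.44, adjusted p = 0.984 by limma). Without mated replicate 2 it was 0.30 (unadjusted p = 0.0153, adjusted p = 0.997 by limma) and without mated replicate 3 it was 0.088 (unadjusted p = 0.476 by limma).

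Areg and Ereg encode amphiregulin and epiregulin, which in ovarian follicles are induced by luteinizing hormone. Areg had log2 signals of 6.94, 6.86 and 7.01 in mated rats, against 6.77, 6.86 and 6.88 in unmated rats. Ereg had log2 signals of 6.43, 6.75 and 6.68 in mated rats, against 6.52, 6.46 and 6.56 in unmated rats. Both genes lay within the odorant receptor range, where a signal of the transcript cannot be told from background. For Areg mated replicate 2 lay below unmated replicate 3, so the groups overlapped, and for Ereg mated replicate 1 was the lowest of all arrays. The log2 fold changes were 0.10 for Areg (95% confidence interval -0.07 to 0.27) and 0.11 for Ereg (-0.11 to 0.32), with an adjusted p = 0.984 by limma for each. With 1 array left out, the log2 fold change ranged from 0.063 to 0.14 for Areg and from 0.042 (without mated replicate 2, unadjusted p = 0.686 by limma) to 0.20 (without mated replicate 1, unadjusted p = 0.0265, adjusted p = 0.506 by limma) for Ereg.

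Egf, the founding ligand, also lay within the odorant receptor range. Its log2 signal was 6.98, 7.21 and 7.04 in mated rats, against 7.14, 7.04 and 7.03 in unmated rats. The groups overlapped, and the means were 7.08 ± 0.12 and 7.07 ± 0.06 in mated and unmated rats (SD, n = 3 each). Its log2 fold change of 0.0067 (95% confidence interval -0.18 to 0.20) turned to -0.038 after a second quantile normalization and to -0.01 after each array was centred on its median. Btc encodes betacellulin, which activates Egfr and Erbb4. It had log2 signals of 8.76, 8.72 and 8.87 in mated rats, against 8.66, 8.59 and 8.98 in unmated rats. The mated values lay inside the span of the unmated ones, and the log2 fold change was 0.04 (95% confidence interval -0.21 to 0.29, adjusted p = 0.987 by limma).

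Areg, Ereg and Btc are also products of granulosa and cumulus cells, so markers of those cells were read beside them. Of 7 measured markers, 5 lay within the odorant receptor range, namely the gonadotropin receptor genes Fshr and Lhcgr together with Inhba, Has2 and Ptx3, and Inha and Amh lay above it. Their mean log2 signal ranged from 6.69 to 6.76 on mated and from 6.55 to 6.68 on unmated arrays. The fold change was above 0 for 6 of the 7 markers (5 after a second quantile normalization or median centring, 3 without unmated replicate 2), and 0 had an unadjusted p under 0.05. Their part in the values of the 3 ligands was not tested.

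Among the receptors, Egfr binds all 6 of these ligands. It had log2 signals of 9.33, 8.86 and 9.11 in mated rats, against 9.13, 9.07 and 9.25 in unmated rats. Mated replicate 1 was the highest and mated replicate 2 the lowest of all arrays. The unmated arrays lay between them. The means were 9.10 ± 0.24 and 9.15 ± 0.09 in mated and unmated rats (SD, n = 3 each), and the log2 fold change was -0.05 (95% confidence interval -0.33 to 0.23, adjusted p = 0.987 by limma). It was 0.07 without mated replicate 2 and -0.165 without mated replicate 1.

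Erbb2 has no known soluble ligand of its own and acts as the preferred partner of the other receptors. It had log2 signals of 10.92, 10.68 and 10.67 in mated rats, against 10.68, 10.85 and 10.85 in unmated rats. The groups overlapped fully, since mated replicate 1 was the highest array and mated replicate 3 the lowest. The log2 fold change was -0.037 (95% confidence interval -0.25 to 0.18, adjusted p = 0.987 by limma), and without mated replicate 1 it was -0.118.

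Erbb3 binds neuregulins, has little kinase activity and recruits PI3K when paired with Erbb2. It had log2 signals of 10.39, 10.21 and 10.18 in mated rats, against 10.26, 10.08 and 10.31 in unmated rats. The groups overlapped, with a log2 fold change of 0.043 (95% confidence interval -0.17 to 0.25, adjusted p = 0.986 by limma), which turned to -0.022 without mated replicate 1 and to -0.025 without unmated replicate 2. Erbb4 binds neuregulins, betacellulin and heparin-binding EGF-like growth factor. Its log2 signal was 7.35, 7.50 and 7.45 in mated rats, against 7.41, 7.22 and 7.55 in unmated rats. Both the highest and the lowest array were unmated, the 6-array mean of 7.41 was just above the odorant receptor range, and the log2 fold change was 0.04 (95% confidence interval -0.18 to 0.26, adjusted p = 0.987 by limma) or -0.0061 after a second quantile normalization.

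**Figure D2:**
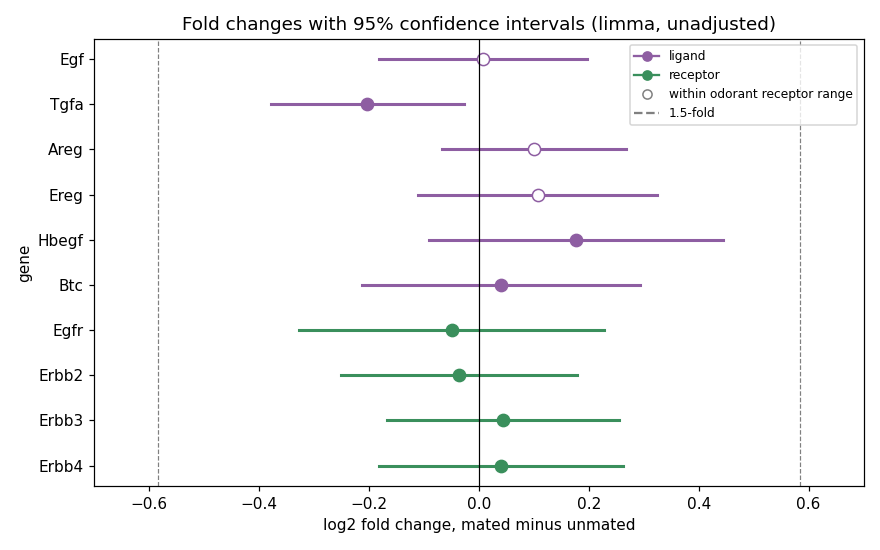
Log2 fold change of mated over unmated rats (x axis) for each gene (y axis), with the unadjusted 95% confidence interval of the limma fit; open points mark genes within the odorant receptor range and dashed lines mark 1.5-fold. The interval of Tgfa, from -0.38 to -0.03, is the only one that leaves out 0, and no interval reaches 1.5-fold.

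Set side by side, the ligands had a median log2 fold change of 0.07, with 5 of 6 above 0 (4 after a second quantile normalization or median centring, where Egf turned). Of these 5, Egf, Areg and Ereg lay within the odorant receptor range, while all 4 receptors lay above it. The ligands above the range were Tgfa at -0.20, Btc at 0.04 and Hbegf at 0.18. The receptors had a median of 0.0017, with 2 of 4 above 0, which became a median of -0.017 with 1 of 4 after a second quantile normalization, where Erbb4 turned, and -0.015 with 2 of 4 after median centring. The counts turned on single arrays: without unmated replicate 2, 3 of 6 ligands and 0 of 4 receptors lay above 0, and without mated replicate 2, 4 of 6 and 4 of 4 did. With 1 array left out, the ligand median ranged from 0.036 without unmated replicate 2 to 0.12 without unmated replicate 3. The receptor median ranged from -0.07 without mated replicate 1, where 1 of 4 lay above 0, to 0.045 without unmated replicate 3. Over all genes the median was 0.01 and 54.5% lay above 0. Apart from Tgfa and Hbegf, the 8 other members lay between -0.05 for Egfr and 0.11 for Ereg. The unadjusted 95% confidence intervals of the 10 members reached at most 1.36-fold on the upper side, for Hbegf, and 0.769-fold on the lower side, for Tgfa. RMA compresses changes of dim probe sets, so for Egf, Areg and Ereg these intervals do not bound a change in the transcript.

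The ligands and the receptors had their highest mean deviation on different arrays and their lowest on the same array, unmated replicate 2. The mean deviation of the ligands from their own 6-array means was -0.031, -0.0011 and 0.089 in mated replicates 1, 2 and 3, against -0.0061, -0.051 and 0.00060 in unmated replicates 1, 2 and 3. Mated replicate 3 stood highest, with 4 of 6 ligands above their own mean, and the other mated arrays lay within the unmated span. The mean deviation of the receptors was 0.11, -0.075 and -0.035 in the same order in mated rats, against -0.018, -0.083 and 0.10 in unmated rats. Mated replicate 1 and unmated replicate 3 were high for the receptors, so the spread within each group was nearly as wide as the whole range. Mated replicate 1 had the highest signal of all arrays for 3 members, the receptors Egfr, Erbb2 and Erbb3, and the lowest for 3 others, the ligands Egf, Tgfa and Ereg. Of those ligands, Egf and Ereg lay within the odorant receptor range. On the same array the ligands Hbegf and Areg stood above their own means, at 0.155 and 0.053. The receptor Erbb4 and the ligand Btc stood below, at -0.063 and -0.003.

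**Figure D3:**
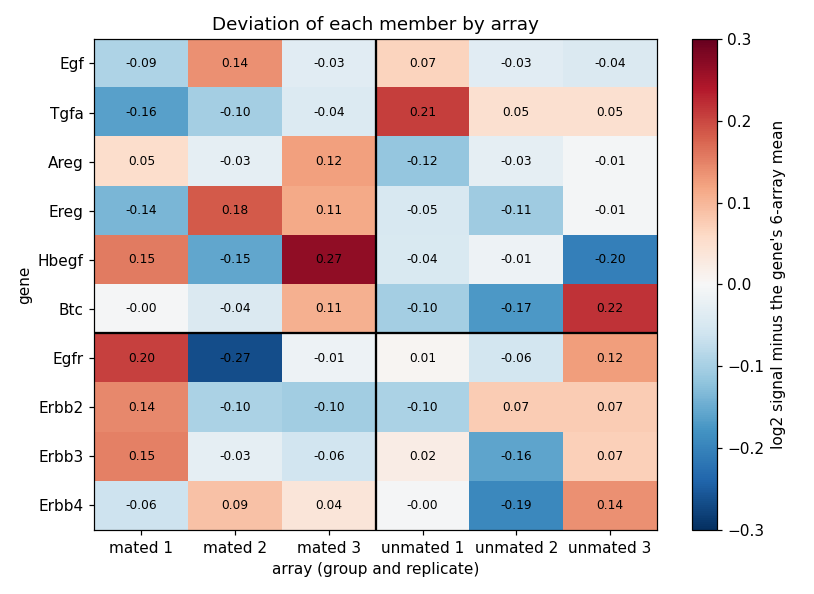
Deviation of each gene (rows, ligands above the line) on each array (columns, mated at the left) from its own 6-array mean, in log2 units, by colour and printed value. Mated replicate 1 is above the mean for Egfr, Erbb2, Erbb3, Hbegf and Areg and below it for Egf, Tgfa, Ereg, Btc and Erbb4. Only the row of Tgfa has 1 sign in each group.

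For Tgfa and Hbegf, the members of largest fold change, the genes closest in pattern were sought among the 10307 other genes above the odorant receptor range, by the mean absolute difference over 6 arrays after each gene was centred on its own mean. Closest to Tgfa were Asic2, an acid-sensing ion channel, at 0.023 log2 units, Arhgap26, which encodes a GTPase-activating protein, at 0.028, and Zfp14 at 0.028, against a median distance of 0.13. Each of them was lower in all 3 mated rats than in any unmated rat, with log2 fold changes of -0.18 for Asic2, -0.24 for Arhgap26 and -0.19 for Zfp14 (adjusted p = 0.984 by limma for each). Over all genes 3.23% were lower in this way. The shared direction follows from the choice by likeness to Tgfa, whose groups did not overlap, and lends the change of Tgfa no support. Closest to Hbegf were Cdc42ep1, an effector of the GTPase Cdc42, at 0.03, Rpsa, which encodes a ribosomal protein, at 0.038, and Wsb2 at 0.039, against a median distance of 0.15. This ranks likeness over 6 arrays and is not a test.

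The rest of the pathway was read from 6 lists, in which 0 genes passed at an adjusted p under 0.05 (limma). Of the other ligands, 2 of 5 were measured, the neuregulin genes Nrg1 and Nrg2. Both lay within the odorant receptor range, and Nrg2, of smaller p, had a log2 fold change of 0.14 (95% confidence interval -0.04 to 0.33). Of 9 measured genes of ligand shedding and trafficking, 8 lay above 0 (7 after median centring, 6 with array weights or without unmated replicate 3) and Adam9 lay below, with a median log2 fold change of 0.043. Adam15, a member of the ADAM family, was the single gene of that list past an unadjusted threshold of 0.05, with a log2 fold change of 0.22 (95% confidence interval 0.02 to 0.42). It had log2 signals of 9.01, 8.82 and 9.11 in mated rats, against 8.80, 8.73 and 8.74 in unmated rats. The groups did not overlap, but 0 genes of the list passed the unadjusted threshold after median centring or when any array other than mated replicate 2 was left out. Adam17, the main sheddase of Tgfa, Areg and Hbegf, was chosen after its values were seen and had a log2 fold change of 0.083 (95% confidence interval -0.10 to 0.26).

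Inside the cell, the 14 measured adaptors and members of the Ras-MAPK cascade divided evenly, with 7 above 0 and 7 below (8 and 6 after a second quantile normalization, 6 and 8 after median centring). Of these, 0 had an unadjusted p under 0.05, and Rasa1, a GTPase-activating protein for Ras, had the smallest p with a log2 fold change of 0.13. Of 11 measured genes of the PI3K, STAT and phospholipase arms, 4 lay above 0 and 7 below (3 and 8 after median centring), again with 0 at an unadjusted p under 0.05. Src, a kinase that cooperates with Egfr, had the smallest p of that list. In log2 signal it stood at 9.16, 9.21 and 9.25 in mated rats, against 9.37, 9.32 and 9.32 in unmated rats. The groups did not overlap, and the log2 fold change was -0.13 (95% confidence interval -0.28 to 0.02). Of 18 measured inhibitors and turnover genes, 11 lay above 0 (12 after a second quantile normalization). Spred1, an inhibitor of Ras-MAPK signalling, was the single gene of that list past an unadjusted threshold of 0.05, at 9.93 ± 0.06 in mated and 9.74 ± 0.07 in unmated rats (SD, n = 3 each). In that list 0 genes passed the unadjusted threshold without mated replicate 3, unmated replicate 1 or unmated replicate 2. Without mated replicate 1, 2 higher and 2 lower genes did, where the share over all genes was 9.67%, against 4.57% as deposited.

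Genes that receptor signalling can induce lay above 0 for 18 of 20 measured members as deposited, after a second quantile normalization and after median centring, with Egr1 and Ccnd1 as the exceptions. Their median log2 fold change was 0.125, against 0.01 over all genes. Fosl1 and Egr2, both above 0, lay within the odorant receptor range. The list holds immediate early genes and was chosen with earlier results of these data known, so its direction is no independent evidence. Of the 20 genes, 3 had an unadjusted p under 0.05 and a higher signal in mated rats, where 3.02% of all genes did. These were Etv5, an ETS transcription factor, Dusp6, a phosphatase that dampens MAPK signalling, and Fos, the last 2 named after their values were seen. Etv5 had log2 signals of 8.33, 8.19 and 8.39 in mated rats, against 8.17, 7.53 and 7.97 in unmated rats. The groups did not overlap, unmated replicate 1 lay just below mated replicate 2, and unmated replicate 2 was far below the rest. Its log2 fold change was 0.41 (95% confidence interval 0.06 to 0.77, adjusted p = 0.984 by limma). The log2 fold changes of Dusp6 and Fos were 0.23 and 0.17. The mean deviation of the list was 0.11, 0.0062 and 0.096 on mated arrays, and 0.043, -0.16 and -0.096 on unmated arrays. Unmated replicate 1 lay above mated replicate 2, so the groups overlapped. Without unmated replicate 2, 17 of 20 lay above 0 and 0 had an unadjusted p under 0.05, and with mated replicate 1 or 3 left out 16 of 20 lay above 0 and 1 did. Without unmated replicate 1, 18 lay above 0, and 5 higher genes and 1 lower gene had an unadjusted p under 0.05. Without mated replicate 2, 17 lay above 0 and 3 did, and without unmated replicate 3, 16 lay above 0 and 2 did. The share of all genes at that threshold was 4.42% without unmated replicate 1. With 1 array left out it ranged from 2.98% (without unmated replicate 2) to 9.67% (without mated replicate 1). After median centring 1 of 20 had an unadjusted p under 0.05.

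**Figure D4:**
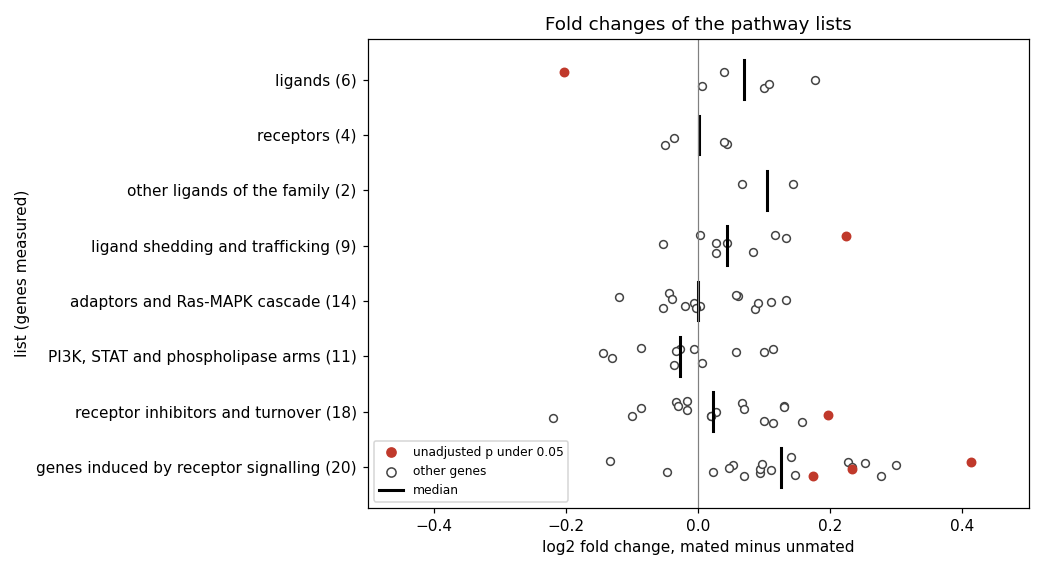
Log2 fold change of mated over unmated rats (x axis) for every measured gene of the members and of the 6 pathway lists (y axis), with red points at an unadjusted p under 0.05 and a bar at each median. The median is 0.125 for genes induced by receptor signalling and lies between -0.027 and 0.105 for the other rows.

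Markers of the tissue and of other cells were read for the same contrast. Of 65 measured markers in 10 lists, 7 had an unadjusted p under 0.05, where 4.57% of all genes did, and 0 passed at an adjusted p under 0.05 (limma). Of 11 epithelial markers 5 lay above 0 and 6 below, with Msx2 and Spag6 past the unadjusted threshold and higher in mated rats, both within the odorant receptor range. After a second quantile normalization or median centring 0 of the 11 passed it. Dpt, lower in mated rats, passed it among fibroblast markers. Of 5 endothelial markers Tie1 passed it, higher in mated rats, and so did Tek, lower and within the odorant receptor range. Of 8 leukocyte markers 3 lay above 0 and 5 below, and S100a8, higher in mated rats and within that range, passed it. Sperm markers lay within the odorant receptor range for 5 of 7 genes, with a mean log2 signal from 6.74 to 6.91 on mated and from 6.77 to 6.81 on unmated arrays. Of these 7, 4 lay above 0 (3 after a second quantile normalization), and Tnp1, lower and within that range, passed the unadjusted threshold. Prm1, a protamine gene above the range that was chosen after its values were seen, had log2 signals of 7.87, 7.99 and 7.98 in mated rats, against 7.82, 7.69 and 7.82 in unmated rats. Its groups did not overlap, and its unadjusted p was 0.0501 by limma. Prm2, the other sperm marker above the range, went the other way, with a log2 fold change of -0.023. The log2 signals of Prm2 were 7.48, 7.72 and 7.73 in mated rats, against 7.53, 7.66 and 7.81 in unmated rats, and overlapped. No gene reached the unadjusted threshold among 8 smooth muscle, 3 red cell, 7 granulosa and cumulus, 5 oocyte or 2 mesothelial markers.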

How the data were processed

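The authors deposited 1 log2 signal per probe set and array. Per the submitters' processing notes these came from RMA in Affymetrix Expression Console; versions and genome build are not given in the sources used here. The log2 scale was taken from the named method and the range of values. Of 29214 probe sets, 15310 had 1 gene symbol, 323 several and 13581 none listed; the brightest probe set of each single symbol was kept, giving 14506 genes. Mated and unmated rats were compared over all genes with limma (version 3.58.1, R 4.3.3; lmFit and eBayes, two-sided, 6 arrays, Benjamini-Hochberg, threshold 0.05), a procedure tested on simulated data. The number of arrays limits the precision. The members, the 6 pathway lists and the 10 marker lists were chosen with earlier results of these data known, so lists are described by counts and medians without a test. By the naming rule the named genes are all members, the gene of smallest p in each pathway list, and 3 nearest genes for each of the members with the 2 largest changes; every other named gene, the exceptions and small counts within a list and the markers included, was chosen after its values were seen. Listed genes without a single-symbol probe set are not analysed here.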

Additional observations from a re-analysis of the deposited data

How the results depend on the processing

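Under 16 alternatives, 0 genes passed at an adjusted p under 0.05 by limma, with a smallest adjusted p = 0.104 without mated replicate 1. The count at an unadjusted p under 0.05 was 663 as deposited, 1207 with array weights, 262 without the dimmest 50% of genes, 1372 over every probe set, and from 432 to 1403 with 1 array left out. The members whose groups did not overlap numbered 1 to 3 with 1 array left out: Ereg joined Tgfa without mated replicate 1 (26.8% of all genes did not overlap), Areg and Hbegf without mated replicate 2 (16.3%), and Btc without unmated replicate 3 (19.9%). The fold changes of Tgfa, Areg, Ereg and Hbegf kept their sign under every alternative run, though Areg and Ereg dropped out when dim genes were removed. The median of the remaining ligands was then 0.023 over 4 genes without the dimmest 25% and 0.04 over 3 without the dimmest 50%, where the median of the 3 remaining receptors was -0.037. The unadjusted p of Tgfa was 0.0579 with a replicate block and 0.0521 after a second quantile normalization (limma). Egf turned to -0.038 after a second quantile normalization and -0.01 after median centring, and Erbb4 to -0.0061 after the same quantile step. With 1 array left out, log2 fold changes ranged from -0.06 to 0.055 for Egf, -0.037 to 0.158 for Btc, -0.165 to 0.07 for Egfr, -0.118 to 0.0067 for Erbb2, -0.025 to 0.09 for Erbb3 and -0.047 to 0.118 for Erbb4; the cause was not tested. Same-numbered animals are not said to be paired, and their deviations correlated at 0.0035, -0.083 and 0.074 over all genes, so the block shares only a number; with it 0 genes passed.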
